A study of Mus musculus with 20 samples.

Results

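Transcripts of 9 B cell surface and lineage genes were followed in bulk liver RNA of mice treated with corticosterone (CORT), with an antibody that neutralizes acyl coenzyme A binding protein (αACBP), or with both. The genes were Cd79a, Cd79b, Ms4a1, Cd22, Pax5, Blk, Fcer2a, Cr2 and Cd37. They were found by their symbols in the deposited count table, where each symbol belonged to 1 of 48440 gene identifiers. All 9 were among the 16071 genes that passed the filter on low counts.

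The livers came from 20 female wild-type C57BL/6J mice (C57BL/6 in the sample labels) that were 8 weeks old when treatment began, and each liver was of 1 mouse. Every mouse received an antibody by repeated intraperitoneal injection over the 5 weeks of the experiment, either a monoclonal antibody against ACBP/DBI or an IgG2a isotype control. CORT, the main glucocorticoid of mice, or its vehicle was given in the drinking water over the same 5 weeks. There were 5 livers in each of the isotype groups, Isotype + Vehicle and Isotype + CORT, and in each of the antibody groups, αACBP + Vehicle and αACBP + CORT. Liver tissue was frozen without separating its cells, so that the RNA of blood cells and resident immune cells was measured together with that of hepatocytes. Alb, which encodes the albumin made by hepatocytes, had group means between 50848 and 84835 CPM (gene counts normalized to the size of each library). Fkbp5, a gene that glucocorticoids induce, was the 1 gene called among 10 glucocorticoid-responsive genes under CORT with the isotype antibody, with a log2 fold change of 1.70 (standard error 0.26). It is named here after its value was seen. Of the 10 genes, 5 had a higher and 5 a lower fitted level, with a median log2 fold change of 0.08, and the summed list was highest in αACBP + Vehicle, at 3725 ± 763 CPM against 1404 ± 515 in Isotype + Vehicle and 1724 ± 211 in Isotype + CORT (SD, n = 5). Mt1 and Mt2, which encode metallothioneins, were the 2 genes of the list called higher with αACBP under vehicle. At 2094 ± 462 and 1097 ± 145 CPM in αACBP + Vehicle, they made up most of that sum. In that comparison 9 of the 10 genes had a higher fitted level, with a median log2 fold change of 0.47.

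Each liver had between 14934926 and 20299999 counts on genes (median 16996358). At these depths, 3 counts correspond to between 0.145 and 0.205 CPM. A gene with fewer counts than that in a liver was close to the limit of what could be seen, and the limit covers counting error only. The 40 pairs of livers from the same group all differed by more than counting noise, with a chi-square of at least 12.0 for each degree of freedom. None of these libraries was thus a copy of another, and each liver was taken as 1 replicate. The paper states that mice were housed in groups. The cage of each mouse is not given in the sources used here, so that cages could not be accounted for.

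B cells recognize antigen with a surface immunoglobulin that signals through a pair of associated chains, Igα and Igβ, the products of Cd79a and Cd79b. Kinases of the Src family, Blk among them, phosphorylate these chains when antigen binds. Coreceptors at the surface set the strength of the signal. CD22 binds sialic acids and dampens it, while CD21, made from Cr2, binds fragments of complement C3 and raises it. CD20 (Ms4a1) is a membrane protein of B cells that therapeutic antibodies target, CD23 (Fcer2a) is the low-affinity receptor for IgE on mature B cells, and CD37 is a tetraspanin of B cells that other leukocytes also carry. Pax5 is the transcription factor that commits progenitors to the B lineage and keeps them there. Glucocorticoids are known to lower the number of circulating lymphocytes.

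Promoter sequences were read for the 6 members that the RefSeq promoter table on GRCm38.p6 held, namely Cd79a, Cd22, Pax5, Fcer2a, Cr2 and Cd37. No entry was found for Cd79b, Ms4a1 and Blk. Each window runs from 250 bases before the annotated start to 50 bases after it. The windows were searched on both strands for the octamer ATGCAAAT, an EBF motif (TCCC and GGGA with 2 bases between them), the PU.1 core GAGGAA, the TATA box TATAAA and a glucocorticoid response element of the form ACANNNTGT, and for the E-box CANNTG. The 4 genes whose window held the EBF, PU.1 or glucocorticoid motif are printed here, because they include the 1 gene called in any comparison between groups and because their levels are followed below. The Cd79a window is chr7:24897247-24897546 on the plus strand, and those of Cd22, Pax5 and Cd37 are chr7:30878979-30879278, chr4:44710645-44710944 and chr7:45238790-45239089, all on the minus strand. Each is written from 5′ to 3′ along its gene, and capitals mark a match to one of the searched motifs other than the E-box.
Cd79a: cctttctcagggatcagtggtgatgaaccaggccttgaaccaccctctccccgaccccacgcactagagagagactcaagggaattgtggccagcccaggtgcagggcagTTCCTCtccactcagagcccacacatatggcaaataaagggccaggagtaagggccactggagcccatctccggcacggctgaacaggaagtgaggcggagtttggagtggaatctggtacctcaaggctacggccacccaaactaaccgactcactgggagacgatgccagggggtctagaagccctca
Cd22: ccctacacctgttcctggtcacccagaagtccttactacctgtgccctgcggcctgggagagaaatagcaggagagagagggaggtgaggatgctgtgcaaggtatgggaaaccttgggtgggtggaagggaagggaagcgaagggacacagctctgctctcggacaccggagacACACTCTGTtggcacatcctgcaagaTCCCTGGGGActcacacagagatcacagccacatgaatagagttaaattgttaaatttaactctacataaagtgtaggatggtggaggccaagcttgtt
Pax5: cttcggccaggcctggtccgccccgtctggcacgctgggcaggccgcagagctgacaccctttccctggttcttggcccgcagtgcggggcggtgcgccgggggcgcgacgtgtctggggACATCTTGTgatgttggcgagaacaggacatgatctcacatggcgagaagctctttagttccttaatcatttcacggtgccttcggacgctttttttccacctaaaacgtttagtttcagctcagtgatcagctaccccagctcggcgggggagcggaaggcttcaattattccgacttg
Cd37: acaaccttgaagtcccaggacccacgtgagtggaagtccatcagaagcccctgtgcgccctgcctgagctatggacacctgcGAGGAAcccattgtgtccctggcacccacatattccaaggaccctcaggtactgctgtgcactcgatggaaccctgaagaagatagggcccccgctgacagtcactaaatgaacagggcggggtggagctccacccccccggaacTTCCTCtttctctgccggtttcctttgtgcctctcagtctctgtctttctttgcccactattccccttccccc

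The capitals in Cd22 are the glucocorticoid motif, from 75 to 67 bases before the start, and the EBF motif, from 49 to 40 bases before it. The Pax5 window held the glucocorticoid motif from 130 to 122 bases before the start. In Cd79a and Cd37 the capitals are the PU.1 core, once in Cd79a and on each strand in Cd37. Of the 32851 windows in the table, 6.85% held the glucocorticoid motif, 0.904% the EBF motif and 28.3% the PU.1 core. The octamer was in 1.74% of all windows and in 0 of the 6 members. The TATA box was in 13.6% of all windows and in 1 of the 6 members, Fcer2a. The E-box was in 72.3% of all windows and in each of the 6 members. A match describes letters in the window and not a bound site.

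In the GENCODE M39 annotation of GRCm39, all 9 were protein-coding genes. Cd79a lies on chr7:24596740-24601622, Cd22 on chr7:30564827-30579767 and Cd37 on chr7:44882849-44888546. Cd79b lies on chr11:106202167-106205588, Ms4a1 on chr19:11227039-11243605 and Pax5 on chr4:44524757-44710487. Blk lies on chr14:63610285-63654587, Fcer2a on chr8:3731737-3744183 and Cr2 on chr1:194819119-194859091. The strand setting of the counting was not given in the sources used here, and exons of another gene on the opposite strand covered 16.6% of the exon bases of Blk, 11.7% of those of Cd22, 8.60% of those of Pax5, 8.40% of those of Cd79a and 5.97% of those of Cd37. Whether reads from such stretches were assigned by strand is therefore not known. Cd79b, Ms4a1, Fcer2a and Cr2 had no such overlap.

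All 9 genes were rare transcripts in the liver. Per kilobase of exon, so that genes of different length could be compared, the levels in the Isotype + Vehicle livers ran from 3.06 ± 1.36 CPM per kb for Cd79a to 0.10 ± 0.042 CPM per kb for Cr2 (SD, n = 5). The signalling chains Cd79a and Cd79b (2.32 ± 1.13 CPM per kb) led the order with Cd37 (2.12 ± 0.49 CPM per kb) and Cd22 (1.33 ± 0.62 CPM per kb). Fcer2a, Pax5 and Blk followed with means between 0.558 and 0.620 CPM per kb, and Ms4a1 had 0.250 ± 0.137 CPM per kb. Every pair of neighbours in this order had overlapping ranges over the 5 livers. In the other groups Cd37 came first. These lengths count the bases of all annotated exons, which makes long genes with rare exons look lower.

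**Figure D1:**
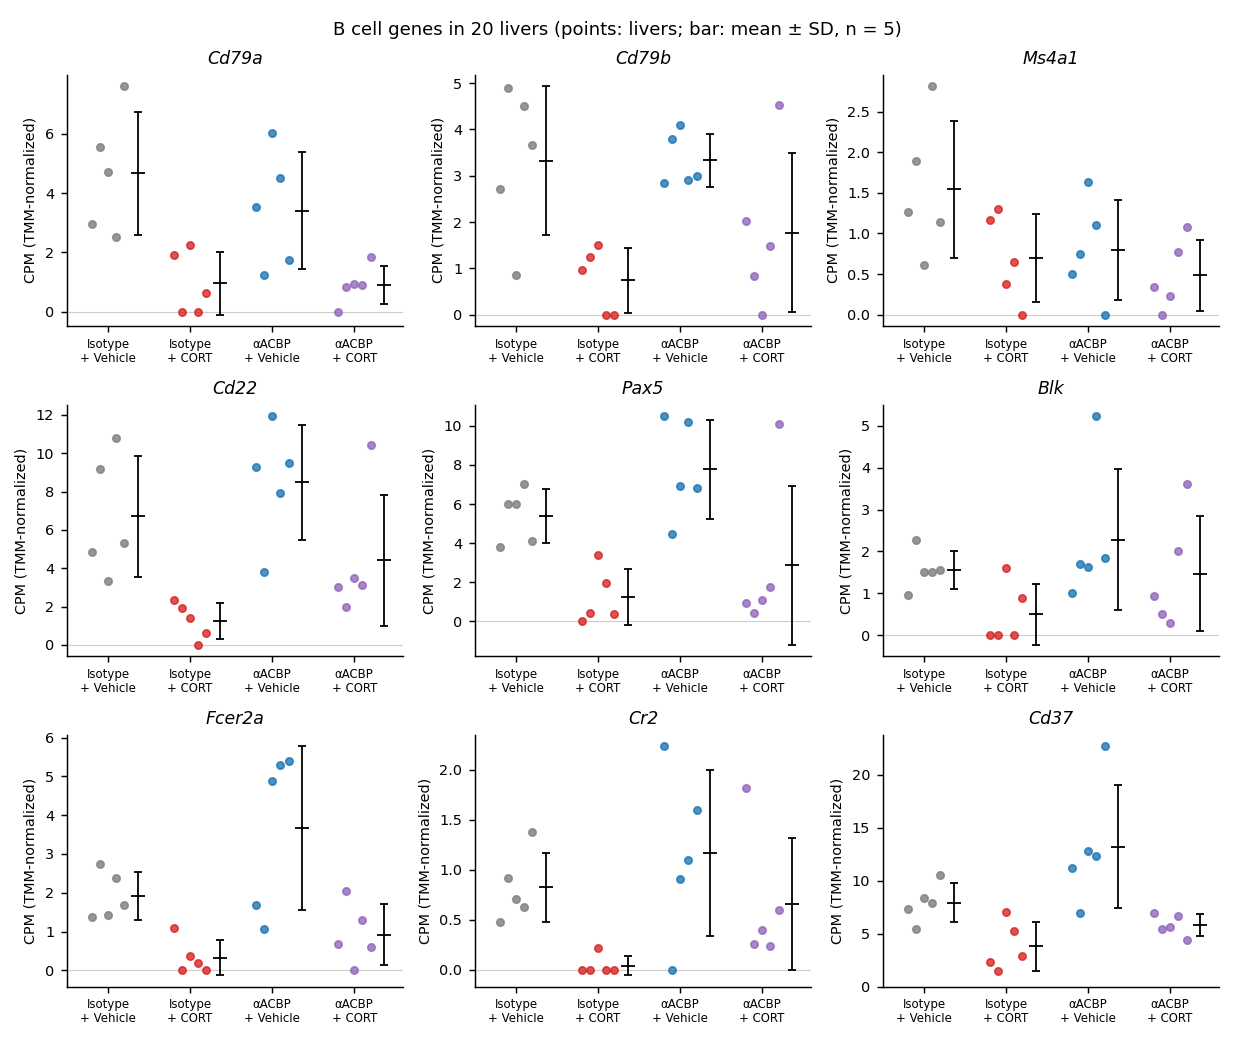
CPM of each B cell gene (vertical axis, TMM-normalized) in the 4 groups; points are livers and the bar beside them is the mean ± SD of 5 livers. Cd79a, Cd22, Pax5, Fcer2a and Cr2 have every Isotype + CORT liver below every Isotype + Vehicle liver, and 1 αACBP + CORT liver stands above the other 4 for Cd22 and Pax5.

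The first comparison asked how CORT changed the liver under the isotype antibody. The fitted level of every member was lower with CORT, by a log2 fold change of at least 1 in 9 of 9 genes, while 9.11% of all genes tested were lower by that much. A gene counted as called where its p, adjusted over all genes by Benjamini and Hochberg, was at most 0.05 and its log2 fold change was 1 or more in size. Among the 9 members Cd22 was called, while 1.94% of all genes tested were called and 1.43% were called lower. The median log2 fold change of the 9 genes was -2.14, against 0.00 over all genes. In bulk tissue, fewer cells of a type and less RNA per cell cannot be told apart.

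Cd22 measured 4.87, 9.17, 3.35, 10.8 and 5.33 CPM in the Isotype + Vehicle livers, and 2.32, 1.90, 1.39, 0 and 0.644 CPM in the Isotype + CORT livers. The groups did not overlap, and 1 CORT liver had no count at all. Cd22 fell by 2.41 on the log2 scale (95% interval -3.63 to -1.19, edgeR quasi-likelihood adjusted p = 0.0224), from a mean of 6.71 ± 3.14 to 1.25 ± 0.94 CPM (SD, n = 5). A two-sided exact permutation test of the 5 against 5 livers gave p = 0.00794, the smallest it can give. The call was lost when Isotype + Vehicle liver 2 or 4 or Isotype + CORT liver 5 was left out (adjusted p between 0.0510 and 0.0617), with the replicate number as a block (adjusted p = 0.0533), with voom (adjusted p = 0.0710) and with only the groups compared in the fit (adjusted p = 0.0774).

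The chains of the antigen receptor were at low levels with CORT. Cd79a measured 2.95, 5.56, 4.72, 2.50 and 7.61 CPM in the Isotype + Vehicle livers and 1.91, 0, 2.24, 0 and 0.644 CPM in the Isotype + CORT livers. The groups did not overlap, although the highest CORT liver lay just under the lowest vehicle liver, and the model gave a log2 fold change of -2.27 (standard error 0.90, unadjusted p = 0.0174, adjusted p = 0.182). Cd79b had 3.32 ± 1.61 CPM against 0.740 ± 0.702 CPM and a log2 fold change of -2.14 (adjusted p = 0.226), and its groups overlapped through Isotype + Vehicle liver 3, which had 0.862 CPM.

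Among the other surface receptors, Cr2 had the widest difference and the fewest counts. It measured 0.481, 0.917, 0.71, 0.626 and 1.38 CPM in the Isotype + Vehicle livers. With CORT it was found in liver 3 alone, with 4 counts (0.214 CPM), and had 0 counts in the other 4 livers. The log2 fold change of -3.99 (95% interval -6.84 to -1.15, adjusted p = 0.118) therefore rested on 4 counts in 1 group and depends on the small count that the model adds. Fcer2a had between 1.38 and 2.75 CPM in the Isotype + Vehicle livers and between 0 and 1.09 CPM with CORT, without overlap (log2 fold change -2.52, adjusted p = 0.179). Ms4a1 had 1.54 ± 0.85 CPM against 0.697 ± 0.541 CPM, with overlapping groups and an interval that included 0 (-3.47 to 1.19).

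Cd37, the most abundant member in CPM, was found in all 20 livers. It measured 7.28, 5.44, 8.37, 7.88 and 10.5 CPM in the Isotype + Vehicle livers and 2.32, 1.5, 7.05, 5.21 and 2.90 CPM in the Isotype + CORT livers. Liver 3 with CORT lay within the range of the vehicle livers, and liver 4 lay just below it. The difference of -1.06 on the log2 scale (standard error 0.36, adjusted p = 0.103) was the smallest of the 9 genes and the one with the narrowest interval (-1.78 to -0.33).

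Of the 2 members that act inside the cell, Pax5 measured 3.79, 5.99, 5.98, 7.01 and 4.13 CPM in the Isotype + Vehicle livers and 0, 0.450, 3.42, 1.95 and 0.386 CPM in the Isotype + CORT livers. These groups did not overlap, and Isotype + CORT liver 3 was again the highest of its group (log2 fold change -2.10, adjusted p = 0.156). Blk had 1.56 ± 0.46 CPM against 0.501 ± 0.729 CPM, with 3 of 5 CORT livers at 0 (log2 fold change -1.62, adjusted p = 0.506).

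At an unadjusted p of 0.05 with the same limit on the fold change, 7 of the 9 members were lower, against 4.09% of all genes tested. The groups did not overlap for 5 of 9 members, each lower with CORT, against 3.02% of all genes. Without Isotype + CORT liver 3, which had the highest summed level of its group, 4 members were called: Cd22, Cd37 (log2 fold change -1.41, adjusted p = 0.0240), Pax5 (-2.94, adjusted p = 0.0423) and Cr2, which then had 0 counts in the whole CORT group (adjusted p = 0.0289). That fit also called more of all genes, 421 of 16462 tested against 312 of 16071, and the liver left out is the one whose summed level of the 9 genes lay nearest to the vehicle group.

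**Figure D2:**
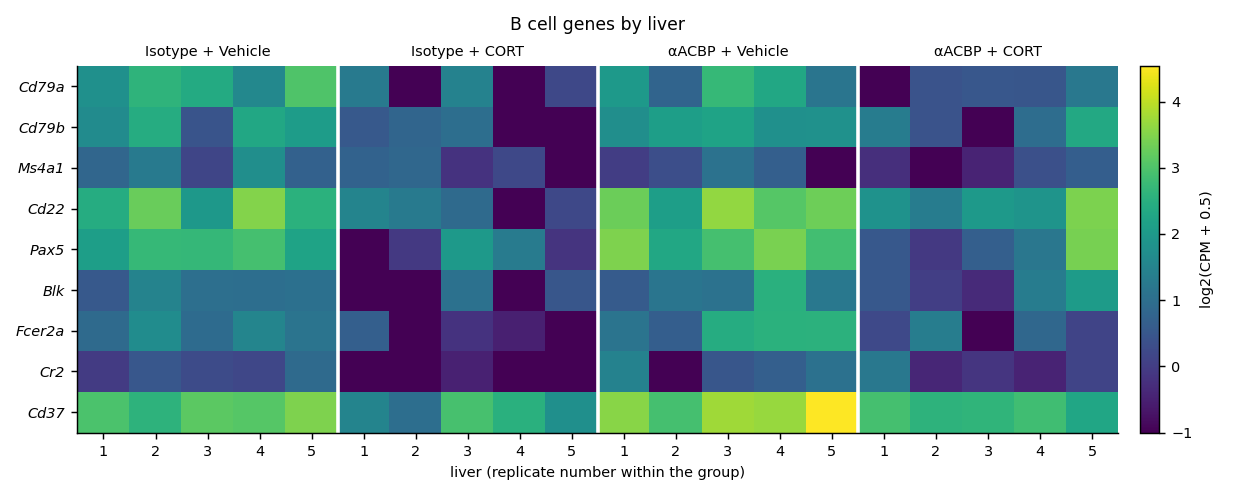
Level of each B cell gene as log2(CPM + 0.5) (colour) in each of the 20 livers, ordered by group and replicate number; the darkest colour is 0 CPM. Most cells at 0 CPM are in the Isotype + CORT group, and αACBP + CORT liver 5 is bright for Cd22 and Pax5.

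The next comparison asked what αACBP changed in mice given CORT. The fitted levels of 7 of the 9 genes were higher with the antibody, as were 51% of all genes, and those of Cd79a and Ms4a1 were lower. None of the 9 was called by edgeR, where 0.597% of all genes were called. At an unadjusted p of 0.05 with the limit on the fold change, 2 members were higher, Cd22 and Cr2, against 2.59% of all genes. DESeq2 and voom also called 0 of the 9. The median log2 fold change of the 9 genes was 1.24, against 0.01 over all genes. That median was the value of Cd79b and leaned on αACBP + CORT liver 5. Without this liver the log2 fold change was 0.53 for Cd79b, 0.89 for Blk and -0.23 for Pax5. It was then -0.53 for Cd79a and -1.05 for Ms4a1. For Cr2, Fcer2a and Cd37 the lowest value came from leaving out another liver.

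Cd22 measured 3.02, 1.99, 3.50, 3.13 and 10.4 CPM in the αACBP + CORT livers, beside the 0 to 2.32 CPM of the Isotype + CORT livers given above. Liver 2 of the antibody group lay within the range of the isotype group and the other 4 lay above it. The log2 fold change was 1.81 (95% interval 0.61 to 3.01, unadjusted p = 0.00461, adjusted p = 0.144). Liver 5 raised the mean to 4.41 ± 3.40 CPM, and without it the log2 fold change was 1.21 (adjusted p = 0.489).

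Cr2 was counted in all 5 αACBP + CORT livers, at 1.81, 0.257, 0.402, 0.236 and 0.594 CPM. Each of these values was above the single Isotype + CORT liver with counts, so the groups did not overlap, as was so for 1.91% of all genes in that direction. Livers 2 and 4 of the antibody group had 4 counts each, however, as many as that Isotype + CORT liver. In counts the groups therefore touched, and they were apart only after scaling to the size of each library. The log2 fold change of 3.68 had an interval of 0.86 to 6.5 (unadjusted p = 0.0125, adjusted p = 0.228), and again rests on the 4 counts of the Isotype + CORT group.

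Cd79a showed no such difference, with 0, 0.836, 0.918, 0.887 and 1.84 CPM in the αACBP + CORT livers. Its mean of 0.895 ± 0.650 CPM was close to the 0.960 ± 1.060 CPM of the Isotype + CORT livers, and the interval of the log2 fold change, -1.90 to 1.72, was wide on both sides of 0. Ms4a1 stood at 0.483 ± 0.435 CPM (log2 fold change -0.52, interval -2.85 to 1.81).

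Pax5 measured 0.940, 0.450, 1.09, 1.77 and 10.1 CPM with the antibody and CORT. Liver 5 alone raised the mean to 2.87 ± 4.07 CPM, while the other 4 livers lay within the range of the Isotype + CORT livers. The fitted difference was 1.20 on the log2 scale with liver 5 and -0.23 without it. The same liver held the highest levels of its group in 6 of the 9 genes, among them Cd79b (4.54 CPM) and Blk (3.62 CPM). Cd37 had 5.82 ± 1.04 CPM against 3.8 ± 2.28 CPM in the Isotype + CORT livers (log2 fold change 0.61, adjusted p = 0.521).

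In mice given αACBP, CORT was again set against vehicle. All 9 fitted levels were lower with CORT, as were 49.5% of all genes, with a median log2 fold change of -0.94 against 0.01 over all genes, and 0 of 9 were called, where 0.212% of all genes were. At an unadjusted p of 0.05 with the limit on the fold change, 3 members were lower, Cd79a, Fcer2a and Cd37, against 1.13% of all genes.

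Cd37 measured 11.2, 6.96, 12.8, 12.4 and 22.7 CPM in the αACBP + Vehicle livers and 6.98, 5.47, 5.62, 6.68 and 4.37 CPM in the αACBP + CORT livers. The groups overlapped by a single liver on each side, at 6.96 and 6.98 CPM. The log2 fold change of -1.18 (standard error 0.35, edgeR adjusted p = 0.137) was close to that under the isotype antibody, and the Wald test of DESeq2 called Cd37 in this comparison (adjusted p = 0.0383). Cd79a had 3.40 ± 1.98 CPM with αACBP and vehicle and a log2 fold change of -1.91 (adjusted p = 0.369), and Fcer2a went from 3.66 ± 2.11 to 0.925 ± 0.783 CPM (-1.98, adjusted p = 0.382). Pax5 was at 7.78 ± 2.53 CPM with vehicle and had a log2 fold change of -1.43 (adjusted p = 0.443). It was called when αACBP + CORT liver 5 was left out (log2 fold change -2.86, adjusted p = 0.0329).

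The interaction of both treatments tested whether CORT had a different effect on these genes in the presence of αACBP. Its estimate was above 0, which means a smaller difference with CORT under αACBP, for 8 of the 9 genes, as for 52.5% of all genes. None of the 9 had an unadjusted p of 0.05 or less, where 10.6% of all genes did, and 0 were called, where 0.143% of all genes were. Cd22 had the lowest p, with an interaction of 1.47 on the log2 scale (95% interval -0.16 to 3.10, unadjusted p = 0.0754, adjusted p = 0.546). For Cr2 it was 3.18 (-0.41 to 6.76) and for Cd37 -0.13 (-1.15 to 0.89). With intervals this wide, a different response to CORT was not shown for any of the 9 genes, and an equal one was not shown either.

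**Figure D3:**
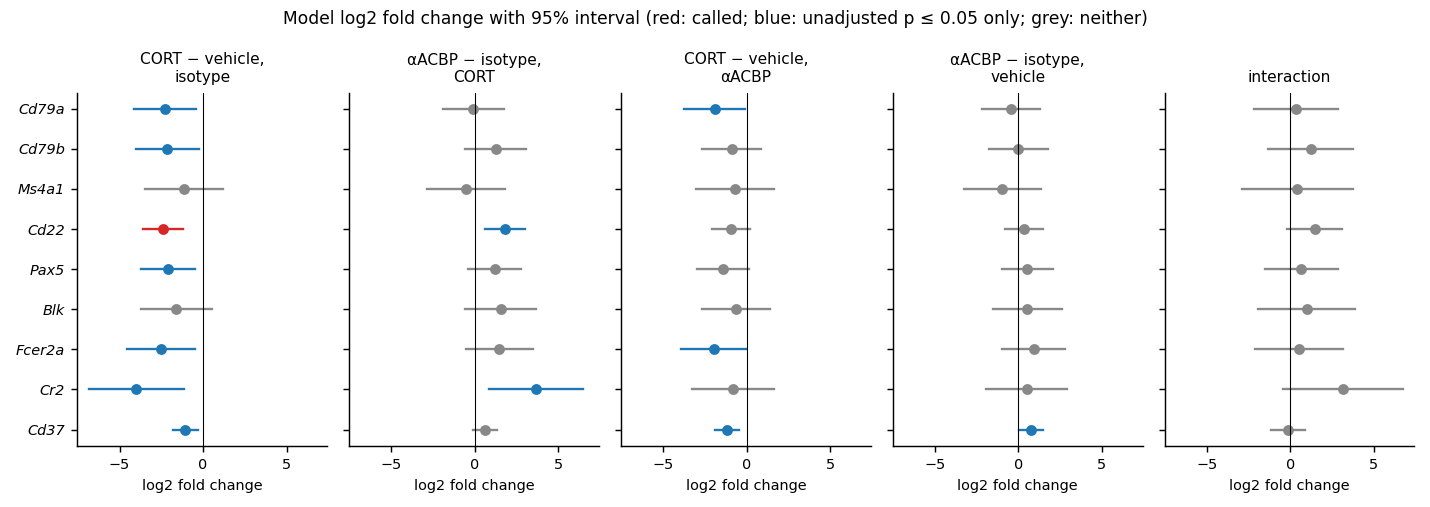
Log2 fold change of each B cell gene in the fitted model (points) with its 95% interval (lines) for 4 comparisons and for the interaction. In the first panel all 9 points lie at or below -1 and Cd22 is the called gene; in the interaction panel every interval includes 0.

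Without CORT, αACBP against isotype gave fitted levels that were higher for 7 of 9 genes, as for 48.8% of all genes, with 0 of 9 called, where 1.3% of all genes were called. Cd37 was the 1 member with an unadjusted p under 0.05 (log2 fold change 0.74, 95% interval 0.03 to 1.45, unadjusted p = 0.0417, adjusted p = 0.220), which 20.6% of all genes had. Its αACBP + Vehicle livers, at 6.96 to 22.7 CPM, overlapped the Isotype + Vehicle livers, at 5.44 to 10.5 CPM. Cd22 had 8.48 ± 2.99 CPM against 6.71 ± 3.14 CPM, and Cd79b had 3.33 ± 0.58 CPM against 3.32 ± 1.61 CPM.

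Mice given both αACBP and CORT were also set against mice given neither, which shares its groups with the comparisons above. All 9 fitted levels were lower, as were 49.7% of all genes, 0 of 9 were called by edgeR, and 0.0684% of all genes were. At an unadjusted p of 0.05 with the limit on the fold change, 1 member was lower, Cd79a, against 0.772% of all genes. Cd79a had the lowest p, with a log2 fold change of -2.37 (95% interval -4.21 to -0.52, adjusted p = 0.425). Its groups did not overlap, the αACBP + CORT livers reaching 1.84 CPM and the Isotype + Vehicle livers starting at 2.50 CPM, as for 1.46% of all genes in that direction. Blk, with -0.08 (-2.13 to 1.97), and Cr2, with -0.32 (-2.76 to 2.12), were the members with the smallest differences.

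The 9 genes varied together over all livers, and more weakly and not in every pair within the groups. Across the 20 livers, Pearson's r of log2(CPM + 0.5) between pairs of members had a median of 0.59 and was above 0 in 35 of 36 pairs. After the mean of each group was subtracted, the median was 0.25, with 31 of 36 pairs above 0 and a range from -0.43 to 0.67. These are descriptions over livers that share the group differences and the library of each liver, at counts from 0 to 471. Of all other genes tested, the one whose level followed the mean of the 9 standardized members most closely was Ighd, the heavy chain of surface IgD on mature B cells (r = 0.946 over 20 livers, 0.826 after subtraction of the group means). Next were H2-Ob, a class II chaperone chain of B cells (0.944 and 0.815), Il2rb, the β chain of the IL-2 receptor (0.906 and 0.774), H2-DMb2, of the class II loading complex (0.903 and 0.717), and Lsp1, a leukocyte actin-binding protein (0.902 and 0.677). The next 5 were Slc22a26, BC048546, Pltp, Cyp2a4 and Ltbp4, with r between 0.884 and 0.900. After subtraction of the group means their r lay between 0.519 and 0.759. Among them Slc22a26, Pltp and Cyp2a4 had means of 115, 172 and 448 CPM over the 20 livers. The 5 genes ranked before them had means of at most 4.42 CPM. A close r was thus not limited to rare transcripts or to the immune genes named above. With the group means subtracted, 3010026O09Rik came first (0.829), followed by Ighd and H2-Ob. After these came Arhgap30 (0.809), Gatm (0.795), Evl (0.780), Il2rb (0.774), Klra13-ps (0.769), Hao2 (0.767) and BC048546 (0.759).

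Other B cell genes were read from lists. Among 23 tested genes for other B cell surface and adaptor proteins, 2 were called lower with CORT under isotype, and 20 had a fitted level below that with vehicle. H2-Oa, which pairs with H2-Ob, and Fcrla, an Fc receptor-like protein of B cells, were the 2, and both had 0 counts in all 5 Isotype + CORT livers. The vehicle mean of H2-Oa (1.06 ± 0.59 CPM) was at least 5.17-fold above a floor of 3 counts per liver. That of Fcrla (0.737 ± 0.645 CPM) was at least 3.6-fold above it. Fcrla also had 0 counts in 1 of the 5 Isotype + Vehicle livers, so its groups overlapped. H2-Oa was also the 1 gene of this list called higher with αACBP under CORT. Its mean there, 0.781 ± 0.732 CPM, was at least 3.81-fold above that floor, but its lowest liver had 3 counts (0.162 CPM). The most abundant genes of the list are not restricted to B cells, and Cd81 had 201 ± 40 CPM with isotype and vehicle and 238 ± 51 CPM with isotype and CORT (log2 fold change 0.24, adjusted p = 0.623).

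Of 21 genes that carry the signal of the antigen receptor, 3 were called lower with CORT under isotype. They were Pik3cd, the leukocyte form of the phosphoinositide 3-kinase catalytic subunit (15.1 ± 5.6 to 4.65 ± 2.29 CPM, log2 fold change -1.70, adjusted p = 0.00209), the kinase Fyn (-1.18, adjusted p = 0.0166) and the paracaspase Malt1 (-1.10, adjusted p = 0.0246). Pik3cd was the 1 gene of the list called higher with αACBP under CORT, at 14.1 ± 1.5 CPM (log2 fold change 1.60, adjusted p = 0.00813). These 3 genes also work in T cells and other cells.

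Of 16 transcription factors that act in B cells, 1 was called lower with CORT under isotype. It was Pou2af1, the octamer coactivator OCA-B, which had 1.25 ± 0.44 CPM with vehicle and 0 counts in all 5 CORT livers (at least 6.11-fold lower than with vehicle). Id3, an inhibitor of E-box binding factors, was the 1 called higher with αACBP under CORT, from 69.5 ± 31.4 to 195 ± 69 CPM (log2 fold change 1.49, adjusted p = 0.00713), and it was expressed far above the level of the B cell members. Under vehicle, mean Id3 was lower with αACBP, at 63.2 ± 4.9 CPM against 131 ± 29 CPM with isotype. Of the 16 genes, 1 was called lower with αACBP under vehicle and 1 higher with CORT under αACBP. The interaction had 1 call, with an estimate above 0.

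Of 15 tested genes of plasma cells and antibody secretion, 3 were called lower with CORT under isotype and 0 were called with αACBP under CORT. In the latter comparison, 3 were higher at an unadjusted p of 0.05 with no limit on the fold change. By that p alone, 15.6% of all genes differed with CORT under isotype and 12.5% with αACBP under CORT, in either direction. The 3 called genes encode chains of immunoglobulins. Ighm, the IgM heavy chain, went from 33.3 ± 10.6 to 5.66 ± 2.36 CPM (log2 fold change -2.55, adjusted p = 0.00169). Igkc, the κ light chain, went from 23.2 ± 6.2 to 7.12 ± 4.40 CPM (-1.71, adjusted p = 0.0355), and Iglc3, a λ chain, from 1.28 ± 1.35 CPM to 0 counts in all 5 livers. With αACBP and CORT, Ighm stood at 9.60 ± 4.89 CPM and Igkc at 9.62 ± 4.05 CPM. Genes of immunoglobulin constant regions are near-identical in places, so that counts may be split between them. Among 5 tested genes for factors that sustain or attract B cells, 0 were called by edgeR in either comparison, and at an unadjusted p 1 was lower with CORT and 1 was higher with αACBP. Cxcl13, which draws B cells into follicles, had 8.30 ± 8.43 CPM with isotype and vehicle, 0.716 ± 0.772 CPM with isotype and CORT and 4.03 ± 2.53 CPM with αACBP and CORT (adjusted p = 0.0912 and 0.337). Among 8 genes for the ligands of the complement receptors and their regulators, 0 were called in either comparison, with 0 and 1 at an unadjusted p, and C3 had 4262 ± 767 CPM with isotype and vehicle and 5295 ± 1943 CPM with isotype and CORT.

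Markers of other immune cells moved in the same comparisons. With CORT under isotype, 7 of 11 genes of Kupffer cells and macrophages and 2 of 8 pan-leukocyte genes were called lower, while 0 of 12 tested T cell genes, 0 of 5 NK cell genes and 0 of 8 dendritic cell genes were called, and 1 of 3 neutrophil genes was called lower. At an unadjusted p of 0.05 in the same edgeR model, with no limit on the fold change, 5 T cell genes, 3 dendritic cell genes and 0 NK cell genes were lower. That p was reached by 15.6% of all genes, in either direction. All 12 T cell genes had a fitted level below that with vehicle, with a median log2 fold change of -1.44. Genes of hepatocytes, sinusoidal endothelium, erythroid cells and cholangiocytes had 0 calls, of 7, 7, 6 and 5 tested, and so had the 4 tested genes of follicular dendritic cells. At an unadjusted p, 1 hepatocyte gene and 1 follicular dendritic cell gene were higher, and 1 endothelial gene and 2 follicular dendritic cell genes were lower. The latter were Cr2, itself one of the 9 members, and Cxcl13, which is counted above among the factors that attract B cells. Ncr1 and Klre1 of the NK cell list and Ly6g, Camp and Ltf of the neutrophil list had 0 counts in every Isotype + CORT liver. None of these genes passed the filter on low counts, so they were not tested. Ly6g also had 0 counts in every Isotype + Vehicle and αACBP + Vehicle liver, and Camp in every αACBP + CORT liver. With αACBP under CORT, 3 of 11 Kupffer cell genes and 1 of 8 pan-leukocyte genes, Ptprc (CD45), were called higher. Of the genes of follicular dendritic cells, 1 was called lower in that comparison, Enpp2 (log2 fold change -1.20, adjusted p = 0.00713).

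**Figure D4:**
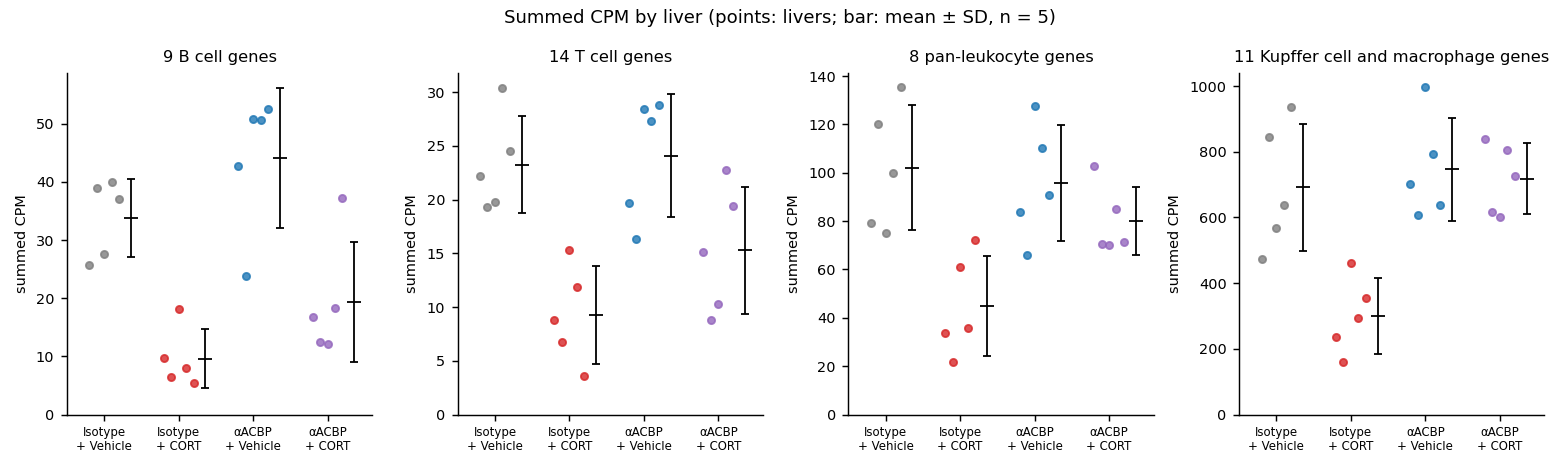
Summed CPM of the 9 B cell genes and of 3 marker lists (vertical axes, each from 0) in the 20 livers; points are livers and bars are mean ± SD of 5. In the αACBP + CORT livers the sum of Kupffer cell and macrophage genes lies between 600.1 and 838 CPM, within the range of the vehicle groups, while 4 of 5 sums of B cell genes lie below those of every vehicle liver. The T cell sums of the αACBP + CORT livers lie between 8.81 and 22.8 CPM, and those of the vehicle livers at 16.3 CPM or more.

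The summed level of the 9 genes was 25.7 to 40.04 CPM in the Isotype + Vehicle livers, 5.47 to 18.1 CPM in Isotype + CORT, 23.8 to 52.6 CPM in αACBP + Vehicle and 12.0 to 37.2 CPM in αACBP + CORT. The Isotype + CORT livers lay below all 10 vehicle livers. Of the αACBP + CORT livers, 4 did so too, at 12.0 to 18.3 CPM, and liver 5 stood at 37.2 CPM. The summed T cell genes had medians of 22.2, 8.82, 27.3 and 15.1 CPM in the same order of groups, the pan-leukocyte genes 100.04, 35.7, 90.8 and 71.4 CPM, and the Kupffer cell and macrophage genes 637, 292, 702 and 726 CPM. The median of the B cell sum in αACBP + CORT was thus 16.7 CPM against 37.0 CPM in Isotype + Vehicle, where the Kupffer cell sum was 726 against 637 CPM. With CORT under αACBP, all 8 dendritic cell genes (median log2 fold change -1.11) and 8 of 12 T cell genes (-0.54) had lower levels. Against neither treatment, 7 of 8 dendritic cell genes (-0.82) and all 12 T cell genes (-0.67) were lower. The members had medians of -0.94 and -0.90 in these comparisons, and the Kupffer cell and macrophage genes 0.02 and -0.13. None of these genes was called there.

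As a share of the pan-leukocyte sum, the 9 genes had 27.3 to 40.03% in Isotype + Vehicle and 7.60 to 29.7% in Isotype + CORT. They had 35.97 to 57.9% in αACBP + Vehicle and 16.3 to 52.0% in αACBP + CORT. The share overlapped between the isotype groups, with medians of 32.4% and 29.0%, and also between the αACBP groups, with medians of 45.9% and 17.6%. As a share of the Kupffer cell and macrophage sum, the medians were 4.86%, 3.94%, 6.09% and 2.01% in the order above. The differences between these shares and the part that the other cell types had in the B cell values were not tested.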

How the data were processed

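Liver RNA of 20 mice, 5 in each of 4 groups, was sequenced as read pairs of total RNA. Per the study's methods, the authors aligned the reads with HISAT2 (version 2.2.1) to GRCm39 and counted them on genes with HTSeq-count (version 2.0.2), in its union mode and with non-unique features kept. The sample labels name mm10 instead, so the build is uncertain, and no coordinate was taken from the counting. The annotation release and the strand setting are not given in the sources used here. The deposited values are raw, unnormalized counts of each gene in each liver. Genes held between 36.6 and 40.4% of the table's total per liver, and 5 lines that name no gene were left out. The table also held 0 columns of other samples.

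All values were computed in R 4.3.3. The 16071 of 48440 genes that passed edgeR's filter were fitted in 1 quasi-likelihood model of the 4 groups (edgeR 4.0.16, TMM normalization, robust estimation, no covariates), with Benjamini-Hochberg adjustment over all genes tested. Genes were called where the adjusted p was at most 0.05 and the log2 fold change was 1 or more in size. CPM are TMM-normalized, and a pseudocount of 0.5 CPM was used on the log2 scale for correlations and for two-sided exact permutation tests of 5 against 5 livers. Standard errors are the fold change divided by the square root of F. The p-values of the fits set the difference between groups against the spread between these mice. The common biological coefficient of variation was 0.481, and log2 CPM of livers in 1 group correlated with r from 0.913 to 0.973.

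The members, the gene lists and the tests were chosen with earlier results of these data known. The rule for other genes took the 3 most abundant tested genes of each list, of which those that bear on the members are given. It also took every called gene of the 4 other B cell lists, and the 10 genes most like the members. Called genes of those lists are named for CORT under isotype and for αACBP under CORT. Beyond these, 1 surface gene was called lower with αACBP under vehicle, and calls of transcription factors are given as counts. Positions and exon lengths were taken from GENCODE M39, which held 91.4% of the table's identifiers, and promoters from RefSeq. The scripts were tested on simulated counts. The alternatives were the size factors and the Wald test of DESeq2 1.42.0, voom with a weight for each liver (limma 3.58.1), other filters, library sizes, thresholds and samples, the replicate number as a block, and each liver left out.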

Additional observations from a re-analysis of the deposited data

Results flagged for a closer look

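Of 36 sets of 5 livers (9 genes in 4 groups), 5 held a liver apart from the other 4 by Dixon's test (95% level). Chance gives that for about 1 in 20 sets of independent, normally distributed values. These CPM were not log-transformed, were near 0 for several genes and came from the same 20 livers. The number of sets can therefore not be read against that rate. In the αACBP + CORT group, liver 5 stood apart for Cd22, the inhibitory coreceptor, with 10.4 CPM where the next liver had 3.50 CPM. It also stood apart for the transcription factor Pax5, with 10.1 CPM where the next liver had 1.77 CPM. In the same group, liver 1 stood apart for the complement receptor Cr2, with 1.81 CPM where the next had 0.594 CPM. In the αACBP + Vehicle group, liver 4 stood apart for the kinase Blk, with 5.23 CPM where the next had 1.83 CPM. In the Isotype + CORT group, liver 3 stood apart for Cr2, with 0.214 CPM where the other 4 livers were at 0, a difference of 4 counts. With 4 livers at 0, any count would have stood apart, so this set says nothing beyond its counts. The summed pan-leukocyte genes of αACBP + CORT liver 5, at 71.4 CPM, were the median of its group.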

How the results depend on the processing

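The number of members called with CORT under isotype, 1 in the reported model, was 2 with DESeq2's Wald test (Cd22 and Cr2), 7 at an unadjusted p, and 0 with voom, with only the groups compared, with the replicate number as a block and with at least 10 counts in every liver, a filter that left Cd37 as the single member tested. It lay between 0 and 4 with each liver left out. For Cd22 in this comparison the log2 fold change lay between -3.78 and -2.41 in the settings that tested it, and between -2.74 and -2.10 with each liver left out. With αACBP under CORT, 0 members were called in the reported model, 2 at an unadjusted p, and 0 with any liver left out. With CORT under αACBP, the count of 0 became 1 with DESeq2 (Cd37), 1 with voom (Pax5) and 3 at an unadjusted p, and lay between 0 and 1 with each liver left out. For αACBP and CORT against neither, it became 1 with voom (Cd79a) and 1 at an unadjusted p. The interaction and αACBP under vehicle had 0 members called under every setting. The replicate numbers do not pair the livers: same-numbered livers of different groups had residual correlations between -0.14 and 0.14, and 2 of 20 livers correlated best with their own number. Beyond the call of Cd22, the block changed no call among the members.

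Directions turned for small differences. Voom gave 0.99 and the block 0.25 for Cd79a with αACBP under CORT, 0.10 and 0.058 for the interaction of Cd37, and voom gave -0.63 for Cr2 with αACBP under vehicle. Cd79b with αACBP under vehicle was -0.0039 without the filter and -0.0036 with only the groups compared. With each liver left out, the log2 fold change ranged from -0.73 to 0.18 for Blk in both treatments against neither, from -0.017 to 0.73 for Blk and from -0.25 to 0.18 for Cd79b with αACBP under vehicle, and from -0.53 to 0.51 for Cd79a and -0.23 to 2.04 for Pax5 with αACBP under CORT. For the interaction it ranged from -0.32 to 0.23 for Cd37, -0.069 to 0.97 for Cd79a, -0.094 to 0.86 for Ms4a1 and -0.76 to 1.51 for Pax5. The lower end for Pax5, Ms4a1 and Cd79a came without αACBP + CORT liver 5. The causes were not tested.

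Over all genes, the 312, 96, 34, 209, 11 and 23 calls of the 6 comparisons, in the order of the report with the interaction last, were 527, 211, 112, 285, 56 and 187 with DESeq2 and 271, 65, 167, 330, 171 and 59 with voom. Unadjusted p gave 890, 520, 395, 537, 223 and 791. Adjusted p without the limit on the fold change gave 514, 154 and 826 with CORT under isotype, αACBP under CORT and αACBP under vehicle. With only the groups compared, αACBP under CORT gave 27 and both treatments against neither 62. The interaction gave 53 without the filter, 60 with at least 10 counts in every liver and 35 with DESeq2's size factors. Depth limits these genes: Cr2 and Ms4a1 had at most 45 counts in any liver.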
